A study of Mus musculus with 6 samples.

Results

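The genes described here are those of mitochondrial protein import and proteostasis: all protein-coding genes with a symbol beginning Timm or Tomm, and 16 named genes of precursor processing, folding and proteolysis. The rule used symbols only and no measured value. It gave 42 genes of the 20121 listed, all 42 with counts in at least 1 heart, and 39 of them passed the filter on low counts. Expression was measured by RNA sequencing of whole hearts of 14-day-old pups (P14) of a mixed strain background (ICR; C57BL/6). The mutant group was Myh6-Cre; TRalphaAMI, in which Cre, driven by the promoter of the heart muscle gene Myh6, switches on a dominant negative thyroid hormone receptor alpha from a knock-in allele. The control group was TRalphaAMI littermates without Cre, so every heart carried the allele. There were 3 pups in each group. No group carried Cre without the allele, so an effect of Cre cannot be told apart from one of the receptor. The p-values measure only the spread between these 6 hearts.

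Nearly all mitochondrial proteins are encoded in the nucleus, made in the cytosol and imported. The TOM complex of the outer membrane is the common entry gate, the SAM complex inserts barrel-shaped proteins into that membrane, and small TIM proteins carry hydrophobic precursors across the space between the membranes. TIM22 inserts carrier proteins into the inner membrane, while TIM23 and its motor draw precursors with a presequence into the matrix, where peptidases cut the presequence, chaperones fold the product and proteases remove what is misfolded or surplus. Heart muscle is among the tissues richest in mitochondria, and thyroid hormone is known to raise mitochondrial content there.

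The largest falls were in Clpp and Clpx, the proteolytic core and the unfolding ATPase of a matrix protease, and in Samm50, the barrel at the centre of the SAM complex. The 250 bases before the RefSeq start of each gene (build GRCm38.p6, plus strand) are shown because these 3 genes moved most. Capitals mark the letters GCATGCGC, the core site of the factor NRF1, and CCAAT, on either strand.
Clpp chr17:56990014-56990263: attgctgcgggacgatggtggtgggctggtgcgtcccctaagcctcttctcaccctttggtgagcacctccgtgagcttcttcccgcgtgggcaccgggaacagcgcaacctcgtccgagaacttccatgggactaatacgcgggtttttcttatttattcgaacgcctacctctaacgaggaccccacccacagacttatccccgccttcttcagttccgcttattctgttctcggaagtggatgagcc
Clpx chr9:65294010-65294259: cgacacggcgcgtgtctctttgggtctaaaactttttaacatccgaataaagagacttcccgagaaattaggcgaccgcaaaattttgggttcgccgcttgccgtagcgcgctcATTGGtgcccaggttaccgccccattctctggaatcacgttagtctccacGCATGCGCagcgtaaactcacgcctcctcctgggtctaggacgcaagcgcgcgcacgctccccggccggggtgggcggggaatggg
Samm50 chr15:84191990-84192239: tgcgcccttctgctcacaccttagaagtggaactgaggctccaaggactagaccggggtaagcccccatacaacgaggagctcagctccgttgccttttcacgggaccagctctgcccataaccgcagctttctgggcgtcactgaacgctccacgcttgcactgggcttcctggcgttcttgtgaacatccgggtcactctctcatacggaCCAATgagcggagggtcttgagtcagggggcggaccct
In Clpx the capitals are ATTGG, which is CCAAT on the opposite strand, and GCATGCGC. Samm50 held CCAAT, and the Clpp window held none of the 6 motifs searched.
Hspd1 and Hspe1, which encode the folding chamber of the matrix and its lid, are transcribed in opposite directions from RefSeq starts 215 bases apart. Of the stretch between them, 2 short windows on the plus strand are shown because both genes share them, with capitals for a heat shock element match, GAANNTTC, and for AAGGTCA, a site of estrogen-related receptors.
Hspd1-Hspe1 heat shock chr1:55088056-55088079: ccgttctaGAACCTTCcggaaggc
Hspd1-Hspe1 ERR chr1:55088092-55088114: gtgggtgaAAGGTCAagtggcgt
These matches are letters in a sequence, and no binding was measured.

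Of the 39 genes tested, 25 (64.1%) were lower in mutant hearts and 1 (2.56%) was higher at an adjusted p under 0.05 in edgeR's quasi-likelihood test, against 19.5% lower and 18.1% higher among all 14877 genes tested. The median log2 fold change, mutant over control, was -0.31, against -0.00 over all genes, and 37 of the 39 lay below the median of all genes. Scaled counts (CPM, relative to the TMM-scaled library size) of all mutant hearts lay below those of all control hearts for 27 of the 39 (69.2%), against 25.4% of all genes. The summed level of the genes was 2603 to 2811 CPM in mutant hearts and 3429 to 3629 CPM in control hearts. The falls were modest, with the largest 1.72-fold.

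**Figure D1:**
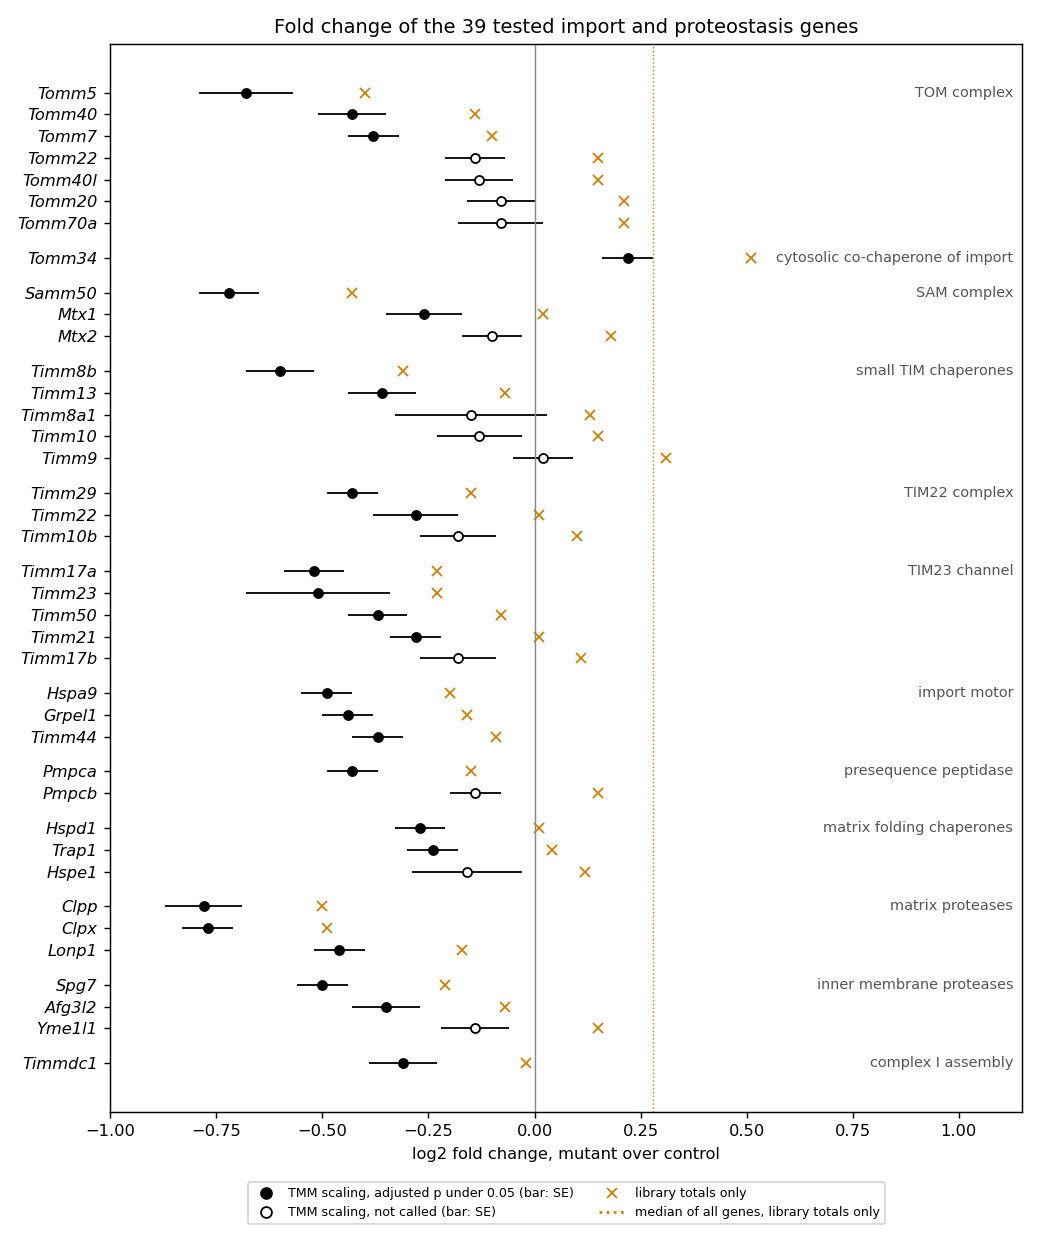
Log2 fold change of the 39 tested genes (x axis, mutant over control) by role; points are TMM-scaled edgeR estimates with SE, filled where called at an adjusted p under 0.05, and crosses are the same with library totals only. Filled points run from -0.78 for Clpp to 0.22 for Tomm34, and the crosses lie to the right of the points by about the shift of the median of all genes, the dotted line at 0.28.

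This picture depends on how libraries were scaled. Genes of the mitochondrial genome took 16.7 to 18.8% of counts in mutant hearts and 22.3 to 24.8% in control hearts, and library totals alone do not correct for such a difference in composition. Other abundant genes differed too: Myh6 averaged 3830 CPM in mutant and 37265 CPM in control hearts, and Myh7 18083 CPM in mutant and 319 CPM in control hearts. The part of each in the shift between scalings was not tested. With library totals only, the median of all genes was 0.28 and that of the import and proteostasis genes -0.02, so they stayed below the bulk of genes, but only 9 were called lower and 4 higher (Mtx2, Timm9, Tomm20 and Tomm34), against 8.11% lower and 50.3% higher over all genes. The 9 were Clpp, Clpx, Hspa9, Lonp1, Samm50, Spg7, Timm17a, Timm8b and Tomm5, and these were called lower in each of the 16 fits run. With TMM factors recomputed after the mitochondrial genome's own genes were taken out, 23 were called lower and 1 higher. All directions below are relative to TMM scaling.

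At the outer membrane, 3 of the 7 TOM genes tested fell and 4 were not called, with a median log2 fold change of -0.14. Tomm5, a small subunit beside the pore, had 17.9, 14.1 and 14.5 CPM in mutant hearts, against 23.8, 27.5 and 23.2 CPM in control hearts. The groups did not overlap, and the fall was -0.68 ± 0.11 (log2, SE; edgeR adjusted p = 8.55e-04). Tomm40, the barrel that forms the pore, had 40.8, 35.6 and 40.4 CPM in mutant hearts, against 47.5, 56.3 and 53.3 CPM in control hearts (-0.43 ± 0.08, edgeR adjusted p = 0.00308). Tomm7, another small subunit, also fell (-0.38 ± 0.06, edgeR adjusted p = 0.00116). The receptors that first bind precursors were not called: Tomm20 was at -0.08 ± 0.08 (edgeR adjusted p = 0.465) and Tomm70a at -0.08 ± 0.10 (edgeR adjusted p = 0.578). Tomm22, the receptor that also holds the complex together, was at 56.4, 49.7 and 50.9 CPM in mutant hearts and 58.0, 57.5 and 56.8 CPM in control hearts (-0.14 ± 0.07, edgeR adjusted p = 0.139). Its groups did not overlap, but the gap between them was narrow. Without mutant 1, Tomm22 (-0.19, edgeR adjusted p = 0.0431) and Tomm70a (-0.21, edgeR adjusted p = 0.0312) were called lower.

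Tomm40l, a relative of Tomm40, was not called (-0.13 ± 0.08, edgeR adjusted p = 0.227). On the opposite strand Nr1i3 overlaps 64.3% of its exon bases, and these libraries do not mark strand, but Nr1i3 itself had only 29 counts summed over the mutant hearts and 25 over the control hearts. Tomm6, a small TOM subunit, had 11, 6 and 11 counts in mutant hearts and 6, 9 and 7 in control hearts, too few to test. Its value is uncertain, since 76% of its exon bases are shared with Gm21981 on the same strand. Tomm20l, a relative of Tomm20, had 2, 0 and 4 counts in mutant hearts and 1, 0 and 0 in control hearts.

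Tomm34, a cytosolic protein that holds precursors together with the cytosolic Hsp70 and Hsp90 chaperones, was the only one of the 39 called higher. It had 33.4, 33.3 and 31.8 CPM in mutant hearts, against 27.0, 28.2 and 29.3 CPM in control hearts, with no overlap. The rise was 0.22 ± 0.06 on the log2 scale (edgeR adjusted p = 0.0185). The call was lost without control 1 (edgeR adjusted p = 0.0542), without control 2 (0.0626) and without mutant 2 (0.0768), while the fold change stayed between 0.19 and 0.22 in these 3 fits. Tomm34 sits outside the mitochondrion, unlike the genes of the membranes and matrix, and whether its place bears on the rise was not tested.

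Of the 3 SAM genes, 2 fell and 1 was not called. Whether these genes differ from each other was examined only by the ratios further below. Samm50 (chr15:84192241-84217267, mm10) had 146, 136 and 153 CPM in mutant hearts, against 232, 252 and 232 CPM in control hearts. Every mutant heart was far below every control heart, and the fall was -0.72 ± 0.07 (log2, SE; edgeR adjusted p = 3.63e-05), or 1.65-fold. Its partners, the metaxins Mtx1 and Mtx2, cap the complex on the cytosolic side. Mtx2 had 94.6, 79.5 and 81.4 CPM in mutant hearts and 90.6, 93.3 and 89.8 CPM in control hearts, with mutant 1 above the controls (-0.10 ± 0.07, edgeR adjusted p = 0.329). It was called lower without mutant 1 (-0.18, edgeR adjusted p = 0.0458) and higher with library totals only (0.18, edgeR adjusted p = 0.0449). Mtx1 was low in both groups, at 12.0, 12.4 and 12.7 CPM in mutant hearts and 13.6, 14.4 and 16.6 CPM in control hearts. Its fall of -0.26 ± 0.09 (edgeR adjusted p = 0.0441) was lost without control 2, control 3, mutant 1, mutant 2 or mutant 3 (edgeR adjusted p 0.0715 to 0.15), and with library totals only the value was 0.02. Exons on the opposite strand, of Thbs3 and Gm43737, cover 30.1% of its exon bases.

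**Figure D2:**
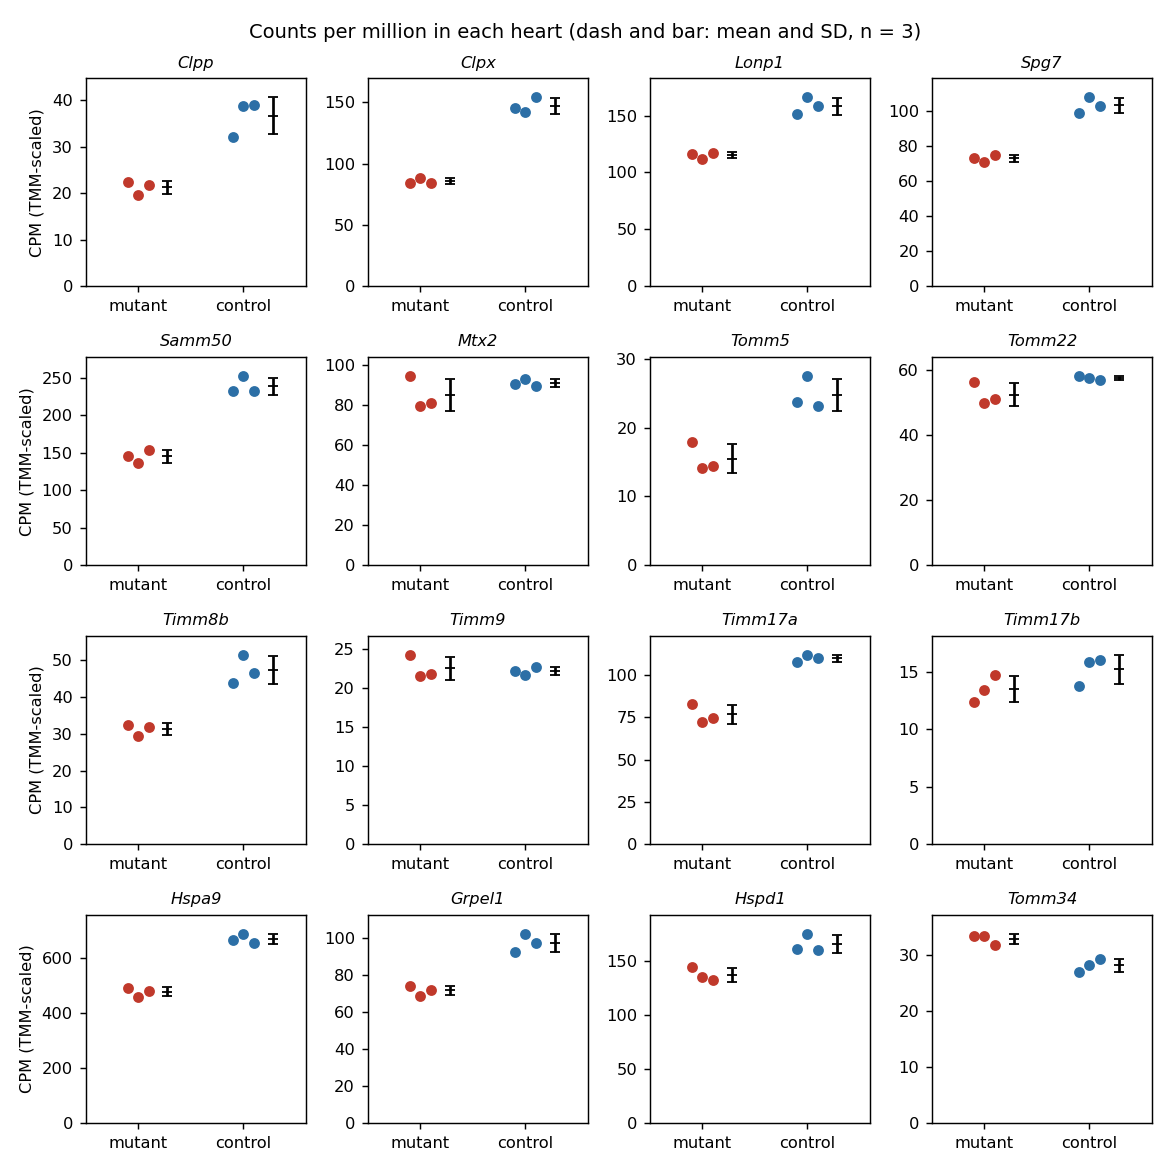
TMM-scaled CPM (y axis, from 0) in each mutant and control heart for 16 genes, with mean and SD beside the points (n = 3). The groups are far apart for Clpx and Samm50, nearer for Hspd1, and overlap for Mtx2, Timm9 and Timm17b; Tomm34 has its mutant hearts on top.

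The small TIM chaperones form rings, Timm9 with Timm10 and Timm8 with Timm13. Timm8b had 32.5, 29.5 and 31.8 CPM in mutant hearts, against 43.9, 51.4 and 46.5 CPM in control hearts, and fell by 0.60 ± 0.08 on the log2 scale (edgeR adjusted p = 2.51e-04). Timm13 had 30.0, 31.1 and 32.1 CPM in mutant hearts, against 36.3, 43.9 and 39.2 CPM in control hearts (-0.36 ± 0.08, edgeR adjusted p = 0.00576). Neither gene's groups overlapped. Timm9, at 24.2, 21.5 and 21.8 CPM in mutant hearts and 22.1, 21.7 and 22.7 CPM in control hearts, was at 0.02 ± 0.07 (edgeR adjusted p = 0.838). Timm10 had 31.0, 24.6 and 27.9 CPM in mutant hearts and 28.4, 34.4 and 28.5 CPM in control hearts (-0.13 ± 0.10, edgeR adjusted p = 0.35). In both genes the mutant and control hearts overlapped. Whether the rings differ was not tested as such, and with library totals only Timm9 was called higher (0.31, edgeR adjusted p = 0.00365).

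Timm8b starts 98 bases from Sdhd, a gene of succinate dehydrogenase that is transcribed the other way. Sdhd had 457 ± 29.6 CPM in mutant hearts and 539 ± 27.1 CPM in control hearts (SD, n = 3 each). Its fall was smaller than that of Timm8b, at -0.24 ± 0.07 (edgeR adjusted p = 0.0243), and its leave-one-out p ran from 0.0103 to 0.0905, above the threshold without control 1, control 2, mutant 2 or mutant 3. Of the 42 genes, 12 have the start of a protein-coding gene on the opposite strand within 1000 bases in the GENCODE annotation. These include genes that overlap, such as Timm29 and Yipf2. The share over all genes was not computed. Timm8a1, a relative of Timm8b on the X chromosome, stood at 1.70, 1.14 and 1.40 CPM in mutant hearts and 1.61, 1.53 and 1.59 CPM in control hearts (-0.15 ± 0.18, edgeR adjusted p = 0.532). The value may be uncertain because 41.0% of its 50-base stretches also occur in Gm9797, which had 3 counts summed over the mutant hearts and 0 over the control hearts. Timm8a2 had 0, 1 and 2 counts in mutant hearts and 0, 1 and 3 in control hearts.

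At the inner membrane, the TIM22 genes gave 2 falls in 3. Timm29, a subunit that links TIM22 to the outer gate, had 48.3, 49.8 and 46.2 CPM in mutant hearts, against 64.4, 68.1 and 62.3 CPM in control hearts (-0.43 ± 0.06, edgeR adjusted p = 5.88e-04). Its groups lay well apart. Timm22, the channel itself, had a smaller fall (-0.28 ± 0.10, edgeR adjusted p = 0.047), and its call was lost without control 1, control 2, mutant 1, mutant 2 or mutant 3 (edgeR adjusted p 0.0567 to 0.181). With library totals only its value was 0.01. Timm10b, a small TIM bound to this complex, was not called (-0.18 ± 0.09, edgeR adjusted p = 0.15).

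In the TIM23 channel 4 of 5 genes fell, with a median of -0.37. Timm17a, a core subunit, had 83.0, 72.5 and 74.9 CPM in mutant hearts, against 108, 112 and 110 CPM in control hearts. That fall was -0.52 ± 0.07 (edgeR adjusted p = 2.52e-04), with no overlap. Its less expressed relative Timm17b had 12.4, 13.4 and 14.7 CPM in mutant hearts and 13.8, 15.9 and 16.0 CPM in control hearts, which overlapped (-0.18 ± 0.09, edgeR adjusted p = 0.172). Timm50, the receptor that takes over the presequence, had 24.3, 23.9 and 26.9 CPM in mutant hearts, against 31.3, 34.4 and 31.5 CPM in control hearts (-0.37 ± 0.07, edgeR adjusted p = 0.00305). Timm21, which links the outer and inner gates, had a small fall (-0.28 ± 0.06, edgeR adjusted p = 0.0049), and was at 0.01 with library totals only.

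Timm23, which forms the channel with Timm17, had only 1.44, 1.32 and 1.45 CPM in mutant hearts and 2.35, 2.02 and 1.67 CPM in control hearts. Over its sequence 54.6% of 50-base stretches also occur in genes elsewhere, chiefly Gm10273, and how the authors counted reads with several matches is not given in the sources used here. Its level and its fall (-0.51 ± 0.17, edgeR adjusted p = 0.0365) are therefore uncertain. The call was also lost in DESeq2 (adjusted p = 0.0659) and without control 1, control 2, mutant 1, mutant 2 or mutant 3 (edgeR adjusted p 0.0629 to 0.112).

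All 3 genes of the import motor fell. Hspa9, the matrix Hsp70 that pulls precursors in and also folds them, had the highest level of the 42 genes. It stood at 492, 458 and 481 CPM in mutant hearts, against 664, 687 and 653 CPM in control hearts, and the fall was -0.49 ± 0.06 (edgeR adjusted p = 2.14e-04). Grpel1, which releases its nucleotide, had 73.8, 68.6 and 72.0 CPM in mutant hearts, against 92.3, 102 and 97.2 CPM in control hearts (-0.44 ± 0.06, edgeR adjusted p = 4.82e-04). Timm44, which tethers the motor to the channel, was at 85.3 ± 1.53 CPM in mutant hearts and 111 ± 2.73 CPM in control hearts (SD, n = 3 each), a fall of -0.37 ± 0.06 (edgeR adjusted p = 5.96e-04). In none of the 3 did any mutant heart reach a control heart.

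The peptidase that removes presequences is a pair of Pmpca and Pmpcb. Pmpca had 82.3, 81.4 and 82.4 CPM in mutant hearts, against 107, 117 and 108 CPM in control hearts (-0.43 ± 0.06, edgeR adjusted p = 3.98e-04). The catalytic partner Pmpcb had 135, 127 and 129 CPM in mutant hearts and 146, 149 and 135 CPM in control hearts (-0.14 ± 0.06, edgeR adjusted p = 0.117). Mutant 1 matched the lowest control heart there, whereas for Pmpca the groups were far apart. Inpp5e overlaps 20.4% of the exon bases of Pmpca on the opposite strand, and was itself at -0.00 ± 0.07 (edgeR adjusted p = 0.993).

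Of the folding chaperones of the matrix, 2 of 3 fell, with a median of -0.24. Hspd1 had 144, 135 and 132 CPM in mutant hearts, against 161, 175 and 160 CPM in control hearts, a fall of -0.27 ± 0.06 (edgeR adjusted p = 0.00782). Hspe1, which shares the stretch printed above, had 20.6, 19.7 and 17.4 CPM in mutant hearts and 19.3, 26.2 and 19.0 CPM in control hearts, where control 2 alone was high (-0.16 ± 0.13, edgeR adjusted p = 0.349). Trap1, the Hsp90 of the mitochondrion, was at 177 ± 5.07 CPM in mutant hearts and 209 ± 9.52 CPM in control hearts (SD, n = 3 each; -0.24 ± 0.06, edgeR adjusted p = 0.0112). Its call was lost without mutant 2 (edgeR adjusted p = 0.0524). With library totals only, Hspd1 was at 0.01 and Trap1 at 0.04. Both folding-chamber genes share sequence with other genes: 39.7% of the 50-base stretches of Hspd1 and 18.4% of those of Hspe1 occur in other genes.

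The matrix proteases had the lowest median of the roles, -0.77 over 3 genes. Clpp (chr17:56990305-56996188, mm10) had 22.3, 19.7 and 21.8 CPM in mutant hearts, against 32.1, 38.8 and 39.0 CPM in control hearts. Its fall was -0.78 ± 0.09 (edgeR adjusted p = 1.26e-04), or 1.72-fold. Clpx (chr9:65294260-65330658, mm10) had 84.5, 88.6 and 84.6 CPM in mutant hearts, against 145, 142 and 154 CPM in control hearts. That fall was -0.77 ± 0.06 (edgeR adjusted p = 1.10e-05), or 1.71-fold. Lonp1, the other large protease of the matrix, had 116, 112 and 117 CPM in mutant hearts, against 151, 166 and 158 CPM in control hearts (-0.46 ± 0.06, edgeR adjusted p = 2.88e-04). In each of the 3 genes all mutant hearts lay below all control hearts, and each stayed called lower with library totals only, at -0.50 for Clpp, -0.49 for Clpx and -0.17 for Lonp1.

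Of the proteases anchored in the inner membrane, Spg7 and Afg3l2 build the complex that faces the matrix. Spg7 had 73.5, 71.0 and 75.1 CPM in mutant hearts, against 99.2, 108 and 103 CPM in control hearts (-0.50 ± 0.06, edgeR adjusted p = 1.63e-04). Afg3l2 had 185, 167 and 155 CPM in mutant hearts, against 207, 228 and 211 CPM in control hearts (-0.35 ± 0.08, edgeR adjusted p = 0.00597). Both were lower in every mutant heart. Yme1l1, which faces the space between the membranes, had 112, 98.8 and 97.4 CPM in mutant hearts and 123, 106 and 109 CPM in control hearts, which overlapped (-0.14 ± 0.08, edgeR adjusted p = 0.208). Timmdc1 has a TIM-like name but is known as an assembly factor of complex I. It had 32.5, 28.7 and 28.7 CPM in mutant hearts, against 37.5, 39.4 and 34.2 CPM in control hearts (-0.31 ± 0.08, edgeR adjusted p = 0.013). That call was lost without control 2 (edgeR adjusted p = 0.0602) and without mutant 2 (0.0543).

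Levels of different genes can be compared per length, in the deposited RPKM, which carry no correction for composition. Hspa9 was highest, at 133 ± 4.31 RPKM in mutant hearts and 153 ± 4.18 RPKM in control hearts (SD, n = 3 each). Samm50 came next, at 95.0 ± 6.39 RPKM in mutant hearts and 128 ± 6.33 RPKM in control hearts. Timm8b followed at 66.2 ± 3.15 RPKM in mutant hearts and 82.2 ± 6.81 RPKM in control hearts, and Trap1 at 75.3 ± 2.73 RPKM in mutant hearts and 73.1 ± 3.43 RPKM in control hearts, so their order is reversed between the groups. Subunits of a single complex spanned a wide range. Within TOM, Tomm22 was at 51.5 ± 2.70 RPKM in mutant hearts and 46.5 ± 0.523 RPKM in control hearts, while Tomm20 was at 5.84 ± 0.462 RPKM in mutant hearts and 5.07 ± 0.202 RPKM in control hearts. Afg3l2 was at 60.0 ± 4.20 RPKM in mutant hearts and 62.9 ± 3.43 RPKM in control hearts, whose difference lies within the SD. Spg7, its partner, was at 17.8 ± 0.678 RPKM in mutant hearts and 20.6 ± 0.861 RPKM in control hearts. The summed RPKM of the 42 genes was 1047 to 1110 in mutant hearts and 1141 to 1236 in control hearts.

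**Figure D3:**
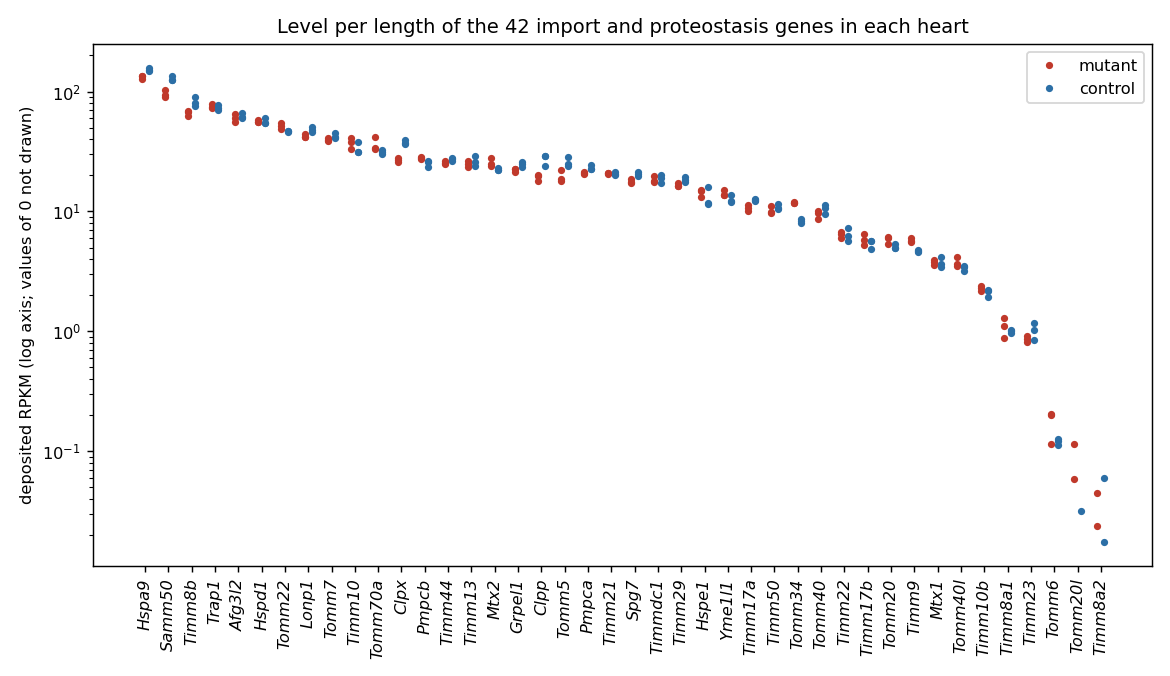
Deposited RPKM on a log axis (y) of the 42 genes (x, ordered by mean) in each mutant and control heart. Levels run from Hspa9, at 133 RPKM in mutant and 153 RPKM in control hearts on average, down to Tomm6, Tomm20l and Timm8a2, all under 1 RPKM.

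A ratio of 2 genes within a heart does not depend on library scaling. Ratios of RPKM were taken for 14 pairs of relatives or partners, of which Samm50 over Mtx2 and Tomm40 over Tomm22 were chosen after their values were seen. With 3 hearts against 3, the exact two-sided permutation test cannot give a p below 0.1, and 0.1 becomes 0.175 after Benjamini-Hochberg adjustment over the 14 pairs, so no pair can pass a threshold of 0.05. The widest gap was in Samm50 over Mtx2, a pair chosen after its values were seen, so its rank and separation are description only. Its ratio was 3.40, 3.75 and 4.12 in mutant hearts, against 5.62, 5.92 and 5.68 in control hearts (log2 difference -0.62, exact permutation p = 0.1). Timm17a over Timm17b was 2.17, 1.75 and 1.64 in mutant hearts, against 2.53, 2.27 and 2.23 in control hearts (-0.35, exact permutation p = 0.1). Tomm40 over Tomm40l was 2.76, 2.40 and 2.39 in mutant hearts, against 2.96, 3.19 and 3.07 in control hearts (-0.29, exact permutation p = 0.1). Pmpca over Pmpcb was 0.733, 0.769 and 0.765 in mutant hearts, against 0.879, 0.941 and 0.961 in control hearts (-0.29, exact permutation p = 0.1). In these pairs every mutant heart had a lower ratio than every control heart. How often the ratios of any 2 genes separate in this way was not computed. Hspa9 over Grpel1 also separated, at a log2 difference of only -0.04.

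The other pairs were mixed. Clpp over Clpx was 0.719 ± 0.0650 in mutant hearts and 0.722 ± 0.0779 in control hearts (SD, n = 3 each; log2 difference -0.00, exact permutation p = 1). Hspa9 over Grpel1 was 5.99 ± 0.00836 in mutant hearts and 6.18 ± 0.234 in control hearts, a log2 difference of only -0.04 (exact permutation p = 0.1). Hspd1 over Hspe1 was 3.98 ± 0.217 in mutant hearts and 4.36 ± 0.551 in control hearts (-0.13, exact permutation p = 0.4). Timm8b over Timm13 was 2.66 ± 0.187 in mutant hearts and 3.14 ± 0.0464 in control hearts (-0.24, exact permutation p = 0.1), so Timm8b was the lower of the ring's 2 genes relative to controls. Tomm40 over Tomm22 was 0.184 ± 0.0105 in mutant hearts and 0.225 ± 0.0206 in control hearts (-0.29, exact permutation p = 0.1). The ratio of Afg3l2 to Spg7 differed by 0.15 (exact permutation p = 0.3), that of Timm9 to Timm10 by 0.15 (exact permutation p = 0.4) and that of Mtx1 to Mtx2 by -0.15 (exact permutation p = 0.6). Timm8a1 over Timm8b (0.42, exact permutation p = 0.1) and Timm23 over Timm50 (-0.14, exact permutation p = 0.7) rest on the uncertain values of Timm8a1 and Timm23.

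**Figure D4:**
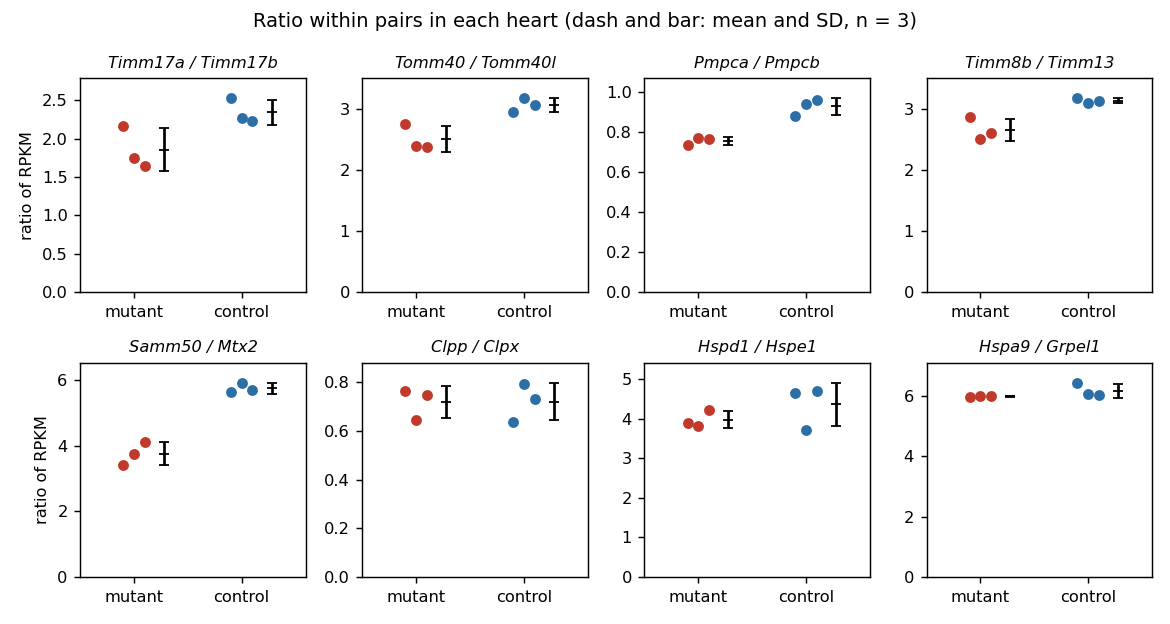
Ratio of RPKM of 2 genes (y axis, from 0) in each mutant and control heart for 8 pairs, with mean and SD (n = 3). Mutant hearts lie below control hearts for Samm50 over Mtx2 (3.76 against 5.74 on average) and Pmpca over Pmpcb (0.756 against 0.927). The first of these pairs was chosen after its values were seen. The groups overlap for Clpp over Clpx (0.719 against 0.722).

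Other genes of the same or related processes were read from lists of known function. Of 18 genes in a list of import and related functions, which also holds Ghitm and Hscb, 10 fell and 8 were not called, with a median of -0.32. Dnaja3, a matrix co-chaperone of Hspa9, was at 89.0 ± 3.46 CPM in mutant hearts and 147 ± 7.27 CPM in control hearts (SD, n = 3 each; -0.73 ± 0.06, edgeR adjusted p = 2.26e-05). Immp2l, an inner membrane peptidase, had the largest fall of the list (-1.21 ± 0.14, edgeR adjusted p = 1.06e-04), and Ghitm, an inner membrane protein, was at -0.53 ± 0.06 (edgeR adjusted p = 1.51e-04). Of 16 genes in a list of quality control and cristae shape, 12 fell and 1 rose. Pink1, the kinase that marks damaged mitochondria for removal, was at 242 ± 11.1 CPM in mutant hearts and 453 ± 33.3 CPM in control hearts (SD, n = 3 each; -0.90 ± 0.07, edgeR adjusted p = 1.41e-05). Minos1, a subunit of the complex that shapes cristae, fell (-0.68 ± 0.06, edgeR adjusted p = 2.08e-05), as did the stress-activated protease Oma1 (-0.64 ± 0.07, edgeR adjusted p = 6.20e-05). Chchd6, of the same cristae complex as Minos1, rose (0.38 ± 0.10, edgeR adjusted p = 0.0145), a call lost without mutant 2 (edgeR adjusted p = 0.0612). With library totals only, 5 genes of the first list were called lower and 4 higher, and 7 of the second lower and 1 higher.

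The lists of nuclear complex I subunits and mitochondrial ribosome proteins had lower medians than the import and proteostasis genes. Both lists were taken by gene symbol. A symbol such as Ndufa4 or Ndufa4l2, both in the first list, need not mean a complex I subunit. All 37 genes of the complex I list fell, with a median of -0.69, and 67 of 76 tested in the ribosome list fell, with a median of -0.41. Scaled by library totals only, 34 genes of the complex I list were lower (median -0.41), and of the ribosome list 24 were lower and 5 higher (median -0.13). The difference between these lists was not tested. Of 20 cytosolic chaperones, 3 fell and 3 rose (median -0.01), and 11 lay below the median of all genes. Of 15 chaperones of the endoplasmic reticulum, 1 fell and 2 rose (median 0.14), and 3 lay below the median of all genes. Over all genes tested, 19.5% fell and 18.1% rose. With library totals only, 3 cytosolic chaperones were lower and 13 higher, and their median of 0.27 was close to the 0.28 of all genes. In the endoplasmic reticulum 0 were lower and 11 of 15 higher, with a median of 0.43. Over all genes, 8.11% were lower and 50.3% higher in that fit. Among cytosolic chaperones, Hspb8 had the largest fall (-1.71 ± 0.08, edgeR adjusted p = 5.16e-07) and Hsp90aa1, an inducible Hsp90, the largest rise (0.88 ± 0.09, edgeR adjusted p = 4.48e-05). Pdia4, a disulfide enzyme of the endoplasmic reticulum, was called higher (0.46 ± 0.14, edgeR adjusted p = 0.0289), but mutant 1, at 36.5 CPM, lay below control 2, at 38.7 CPM. That call was lost without control 1, control 3, mutant 2 or mutant 3 (edgeR adjusted p up to 0.115).

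**Figure D5:**
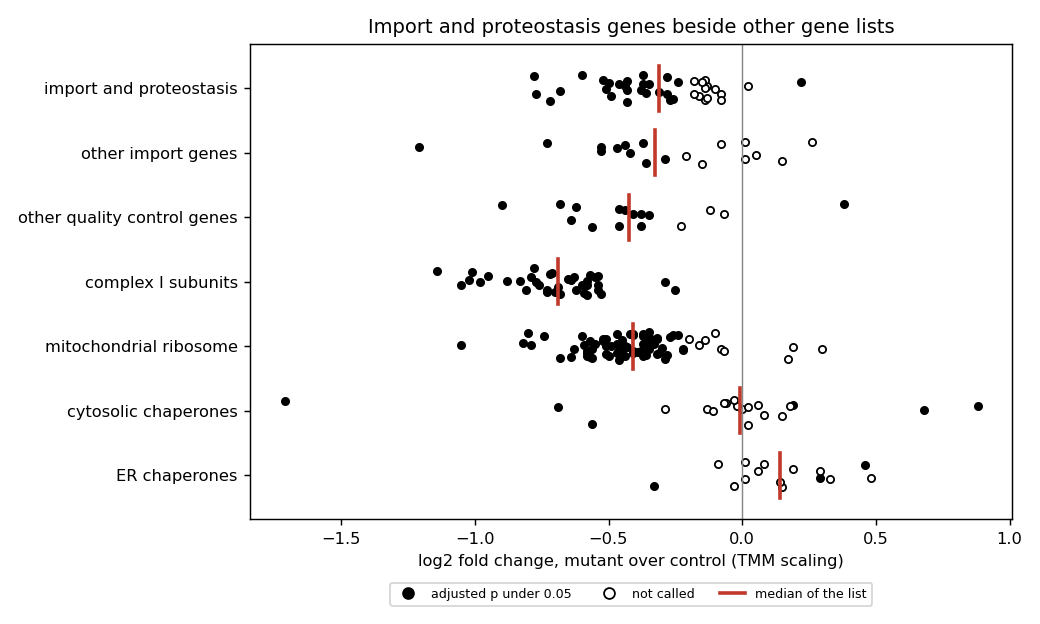
Log2 fold change (x axis, mutant over control, TMM scaling) of the import and proteostasis genes and of 6 other lists; filled points are called at an adjusted p under 0.05 and red bars are medians. Medians are -0.31 for the import and proteostasis genes, -0.69 for complex I, -0.41 for the mitochondrial ribosome, -0.01 for cytosolic and 0.14 for endoplasmic reticulum chaperones; vertical scatter within a row carries no value.

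Factors of the mitochondrial and integrated stress responses were mixed. Of 8 tested, 3 fell and 1 rose, and with library totals only 2 were lower and 3 higher. Atf5, a factor linked to the mitochondrial unfolded protein response, was at 34.5 ± 3.20 CPM in mutant hearts and 45.9 ± 5.63 CPM in control hearts (SD, n = 3 each; -0.41 ± 0.10, edgeR adjusted p = 0.0096), but was not called with library totals only (-0.13, edgeR adjusted p = 0.327). Chac1, a target of Atf4, was at 0.765 ± 0.212 CPM in mutant hearts and 7.72 ± 0.858 CPM in control hearts (SD, n = 3 each; -3.33 ± 0.18, edgeR adjusted p = 1.66e-06). Cebpb also fell (-1.33 ± 0.20, edgeR adjusted p = 6.07e-04). Gdf15, a secreted stress signal, rose at a low level, with 1.59 ± 0.456 CPM in mutant hearts and 0.552 ± 0.0395 CPM in control hearts (SD, n = 3 each; 1.52 ± 0.25, edgeR adjusted p = 0.00111). Atf4 (-0.23 ± 0.10, edgeR adjusted p = 0.0878) and Ddit3 (0.15 ± 0.20, edgeR adjusted p = 0.578) were not called.

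Of 4 factors that drive nuclear mitochondrial genes, 1 fell. Esrra, an estrogen-related receptor, was at 113 ± 5.68 CPM in mutant hearts and 135 ± 9.57 CPM in control hearts (SD, n = 3 each; -0.26 ± 0.07, edgeR adjusted p = 0.0184). That call was lost without control 2 or mutant 2, with a leave-one-out p of up to 0.0776, and the value was 0.03 with library totals only. Ppargc1a, the coactivator PGC-1alpha, was at -0.06 ± 0.17 (edgeR adjusted p = 0.814), Nrf1 at 0.14 ± 0.07 (edgeR adjusted p = 0.118) and Gabpa at 0.09 ± 0.08 (edgeR adjusted p = 0.406). Promoter windows from 250 bases before to 50 after the RefSeq start (GRCm38.p6) were found for 37 of the 42 genes, as 40 windows among 32851. On either strand, CCGGAAGT, a site of ETS factors such as Gabpa, occurred in 9 of the 40 windows, against 3.89% of all windows. Its carriers were Mtx2, Pmpcb, Timm10, Timm10b, Timm23, Timm29, Timm8a2, Timmdc1 and Tomm70a. Of these, Timm23, Timm29 and Timmdc1 were called lower, and the value of Timm23 is uncertain. Timm8a2 had too few counts to be tested. Among the 39 import and proteostasis genes tested 64.1% were called lower, and among all genes 19.5%. A link between this site and the fold changes was not tested. AAGGTCA occurred in 6 of the 40 windows, against 4.72%, in Hspd1, Hspe1, Timm23, Timm44, Timm8b and Trap1, with Hspd1 and Hspe1 sharing their stretch. It contains AGGTCA, the core of many nuclear receptor sites, which occurred in 11, against 16.3%. GCATGCGC occurred in 3 (Clpx, Grpel1 and Timm13), against 2.71%, GAANNTTC in 3 (Hspd1, Hspe1 and Timm9), against 7.86%, and CCAAT in 12, against 37.4%.

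Libraries held 43314706 to 62095277 counts. Thra, the gene of the altered receptor, was at 137 ± 10.4 CPM in mutant hearts and 76.7 ± 8.54 CPM in control hearts (SD, n = 3 each). Myh6 and Myh7, whose switch is a textbook sign of lost thyroid hormone action, were at -3.28 ± 0.10 (edgeR adjusted p = 7.64e-08) and 5.83 ± 0.15 (edgeR adjusted p = 3.24e-08). Markers of several cell types moved with the group. For the counts below, 19.5% of all genes tested were called lower and 18.1% higher. The 10 heart muscle markers, all well above 0, summed to 41678 to 43178 CPM in mutant hearts and 48796 to 54726 CPM in control hearts, with 5 lower and 5 not called. The 8 endothelial markers summed to 1349 to 1454 CPM in mutant hearts and 1609 to 1725 CPM in control hearts, with 6 lower. Macrophage markers summed to 69.8 to 73.2 CPM in mutant hearts and 104 to 117 CPM in control hearts, with 6 of 8 lower. Fibroblast markers summed to 3018 to 3379 CPM in mutant hearts and 2635 to 2977 CPM in control hearts, with 3 of 8 higher. Of smooth muscle and pericyte markers 2 of 8 fell and 2 rose, of brown fat markers Fabp4 fell (a call lost without control 1, control 2, control 3, mutant 2 or mutant 3, edgeR adjusted p up to 0.0934), of skeletal muscle markers Ckm, which heart muscle also makes, fell, and the 5 red cell markers tested were not called. All heart muscle, endothelial, macrophage and fibroblast markers had counts in each of the 6 hearts. Adipoq, a defining brown fat marker, was not listed, and Ucp1, another, had 2 counts summed over the mutant hearts and 3 over the control hearts. In whole hearts, fewer cells of a type and less RNA per cell cannot be told apart, and the part of these shifts in the fall of the import and proteostasis genes was not tested.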

How the data were processed

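Whole hearts of 6 pups were profiled, 3 mutant and 3 control, grouped by sample title. Per the labels' protocols, RNA of frozen hearts was isolated by Trizol and went into the TruSeq RNA Library Prep Kit v2, which does not mark strand. The deposited count tables hold whole-number counts per Ensembl gene, and the authors' RPKM divide these by gene length and library total. The tools featureCounts 1.5.1, STAR 2.5.2b and cutadapt 1.9 and the mm10 build are named, per the submitters' processing notes. The sources used here give no annotation release, strand setting or treatment of reads with several matches. Depth was 43314706 to 62095277 counts per library.

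Symbols came from GENCODE M21, for 20081 of 20121 identifiers. The test on counts was that of edgeR 4.0.16 under R 4.3.3 (filterByExpr, which left 14877 genes, TMM, quasi-likelihood F test with group as the only term, Benjamini-Hochberg over all genes tested, called at an adjusted p under 0.05). The script was tested on simulated data. CPM are counts over the TMM-scaled library size. The SE is the log2 fold change divided by the square root of F, an approximation. Ratios of 2 genes were compared by an exact two-sided permutation test. Shared sequence is the percentage of a gene's 50-base stretches found in other GENCODE genes. Alternatives were DESeq2 1.42.0, other scalings and filters, limma 3.58.1 on log2(RPKM + 1) and log2(RPKM + 0.1) with a mean RPKM of at least 0.5 or no filter, a replicate block, leaving out each heart, and a threshold of 0.01.

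The genes and lists were chosen with earlier results of these data known. Named with full values are, per role, the called gene with the largest fall and rise, both genes of each pair, and genes below the filter; in other lists, up to 3 called genes with the smallest adjusted p in each direction. Further genes were named after their values were seen. Libraries of a group differed by more than sampling noise, so none was counted as a repeat. Ratios for Samm50 with Mtx2 and Tomm40 with Tomm22 were added after seeing the data.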

Additional observations from a re-analysis of the deposited data

How the results depend on the processing

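With library totals only, 7479 of all genes were called higher and 1207 lower, and among the import and proteostasis genes 9 were lower and 4 higher. In limma on log2(RPKM + 1), log2(RPKM + 0.1) and log2(RPKM + 1) with no filter, the counts over all genes were 6595, 6584 and 6916 higher and 1083, 1077 and 1170 lower, with 10 import and proteostasis genes lower each time and 5, 5 and 3 higher. Their median was -0.02 in all 4. Of the 39 fold changes, 19 were above 0 with library totals only and 2 with TMM scaling. Among genes called in either fit, those of Hspd1 (0.01), Mtx1 (0.02), Timm22 (0.01), Timm21 (0.01) and Trap1 (0.04) were positive in all 4, those of Mtx2 (0.18, 0.17 and 0.18) and Tomm20 (0.21, 0.17 and 0.20) were positive and called with library totals and the filtered limma fits, and that of Tomm22 (0.14, 0.15 and 0.14) in the 3 limma fits, while it was 0.15 and not called with library totals. These 4 settings by construction carry no correction for composition.

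At an adjusted p under 0.01, 1751 of all genes were called higher and 1940 lower, and 0 import and proteostasis genes were called higher. That count of 0 is from edgeR, where Tomm34 had an adjusted p of 0.0185. The 9 genes called lower in each of the 16 fits also had an edgeR adjusted p under 0.01, the highest being 8.55e-04 for Tomm5. Leaving out each heart gave 2039 to 2661 genes higher and 2234 to 2856 lower, with 20 to 25 import and proteostasis genes lower, 0 to 1 higher and a median of -0.36 to -0.28. DESeq2, RLE factors, TMM without mitochondrial genome genes and no filter gave 24, 24, 23 and 23 lower and 1 higher each. The log2 ratio of Timm23 over Timm50 ran from -0.25 to 0.01 without single hearts. Tomm6, Tomm20l and Timm8a2 had too few counts to be tested.

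With the replicate block, 3090 genes were called higher and 3229 lower, and 25 import and proteostasis genes lower and 1 higher, with Timm22 lost (adjusted p = 0.0557) and Yme1l1 gained (0.0495). Same-numbered hearts had correlations of deviations of 0.155, -0.0502 and 0.0956. Mutant 1 and mutant 3 correlated best with the control heart of their own number, and mutant 2 did not. With 3 hearts per group, these values cannot decide whether same-numbered hearts form pairs.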
